A study of Mus musculus with 16 samples.

Results

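The data compared here are the H3K4me3 peaks of late 2-cell mouse embryos that had received mRNA of a mutant Hdac1 and of embryos that had received water. Members were all peaks on chromosomes 1 to 19 of both deposited H3K4me3 lists, 83220 in the control and 83290 in the mutant list, together 166510 of the 372612 peaks in the 4 lists of the series. Per the labels, zygotes were injected with H2O (control) or with Hdac1 mutant mRNA (mutant), and all embryos were collected 36 h after fertilization and freed of the zona pellucida. The kind of mutation, the strain and the number of embryos per library are not given in the sources used here, and the control received water, not another mRNA. Each group had 2 immunoprecipitation libraries described by 1 common list, so nothing below has a replicate error and no difference between the conditions could be tested. The comparison addresses how a mutant deacetylase bears on the placement of H3K4me3 around the activation of the zygotic genome.

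H3K4me3 is trimethylation of lysine 4 of histone H3, written by SET1 and MLL (KMT2) complexes and removed by KDM5 demethylases. In most cells it sits in short peaks over active and poised promoters, where CXXC-domain proteins of the writer complexes bind unmethylated CpG dinucleotides. Mouse oocytes carry unusually broad H3K4me3 domains, which are cleared around the 2-cell stage as the embryonic genome becomes active. Hdac1 encodes a class I deacetylase, which removes acetyl groups from histones and belongs to the Sin3, NuRD and CoREST corepressor complexes.

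Several results below turn on the CpG content of promoters, so the 200 bases before the start site are printed for 9 of the 16457 protein-coding genes that matched an entry of the RefSeq promoter table of GRCm38.p6. The capitals mark CpG dinucleotides, and every sequence runs 5′ to 3′ on the strand of its gene. The first set holds the 3 genes with the largest deficit of the mutant list in H3K4me3-covered length within 10 kb of the start site. These promoters lie at chr3:88410398-88410597 (minus strand), chr17:33940344-33940543 (minus strand) and chr17:35916441-35916640 (minus strand), and hold 6, 10 and 14 CpG.
Pmf1: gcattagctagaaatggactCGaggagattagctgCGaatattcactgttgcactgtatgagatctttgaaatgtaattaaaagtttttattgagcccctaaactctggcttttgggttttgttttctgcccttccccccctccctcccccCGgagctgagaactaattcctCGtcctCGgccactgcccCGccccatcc
Pfdn6: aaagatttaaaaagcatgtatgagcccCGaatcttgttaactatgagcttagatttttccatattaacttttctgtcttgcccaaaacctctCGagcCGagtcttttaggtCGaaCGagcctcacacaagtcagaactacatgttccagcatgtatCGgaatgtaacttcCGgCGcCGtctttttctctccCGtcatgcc
Mrps18b: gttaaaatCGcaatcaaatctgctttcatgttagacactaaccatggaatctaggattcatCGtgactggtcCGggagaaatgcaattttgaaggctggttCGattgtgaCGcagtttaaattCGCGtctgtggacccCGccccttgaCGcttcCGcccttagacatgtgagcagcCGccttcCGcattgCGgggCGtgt
The second set holds the 3 genes with the largest excess of the mutant list, at chr9:108783612-108783811 (plus strand), chr12:88323632-88323831 (plus strand) and chr19:47144175-47144374 (minus strand), with 19, 0 and 5 CpG.
Ip6k2: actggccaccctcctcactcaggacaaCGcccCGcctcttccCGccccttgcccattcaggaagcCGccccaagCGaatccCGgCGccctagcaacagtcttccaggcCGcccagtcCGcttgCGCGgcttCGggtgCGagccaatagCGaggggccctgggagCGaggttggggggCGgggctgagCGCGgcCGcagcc
Gm10264: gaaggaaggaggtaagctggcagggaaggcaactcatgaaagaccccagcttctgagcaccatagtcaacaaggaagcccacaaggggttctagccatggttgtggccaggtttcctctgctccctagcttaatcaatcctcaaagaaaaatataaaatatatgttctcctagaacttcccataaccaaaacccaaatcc
Calhm1: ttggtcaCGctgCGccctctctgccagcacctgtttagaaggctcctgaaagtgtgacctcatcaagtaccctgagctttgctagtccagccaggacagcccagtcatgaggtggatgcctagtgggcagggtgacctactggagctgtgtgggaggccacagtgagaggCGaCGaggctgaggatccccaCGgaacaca
The last set shows promoters of chromatin regulators marked in both lists, namely the deacetylase gene Hdac2 at chr10:36974344-36974543 (plus strand) and the demethylase genes Kdm5b at chr1:134559978-134560177 (plus strand) and Kdm1a at chr4:136602724-136602923 (minus strand), with 21, 11 and 21 CpG.
Hdac2: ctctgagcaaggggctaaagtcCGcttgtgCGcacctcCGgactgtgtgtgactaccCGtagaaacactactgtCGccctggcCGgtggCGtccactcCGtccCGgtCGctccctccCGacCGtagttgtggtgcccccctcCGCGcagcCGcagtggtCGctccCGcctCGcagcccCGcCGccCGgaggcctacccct
Kdm5b: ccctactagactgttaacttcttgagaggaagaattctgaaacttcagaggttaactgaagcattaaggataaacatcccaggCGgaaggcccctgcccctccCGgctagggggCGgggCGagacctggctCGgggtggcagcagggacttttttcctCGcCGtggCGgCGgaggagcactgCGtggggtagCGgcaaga
Kdm1a: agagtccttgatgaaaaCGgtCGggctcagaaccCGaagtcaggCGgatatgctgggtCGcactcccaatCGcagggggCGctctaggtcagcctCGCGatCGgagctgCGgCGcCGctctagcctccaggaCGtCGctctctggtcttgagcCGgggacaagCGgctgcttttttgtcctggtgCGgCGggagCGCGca

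The mutant list held wider H3K4me3 peaks, not more of them. Peak numbers differed by a ratio of 1.001 (mutant to control), whereas control peaks covered 247 Mb and mutant peaks 273 Mb, or 10.03% and 11.1% of the span of the chromosomes. The control held more peaks of 1 to 2 kb (17159 against 15800) and of 2 to 5 kb (23362 against 21544). The mutant list held more in each wider class, with 9818 against 11616 peaks of 5 to 10 kb, 3325 against 4603 of 10 to 20 kb, and 745 against 894 over 20 kb. Peaks of 0.5 kb or less were about equally frequent, at 16000 and 16258. The depth of the libraries is unknown, and the smallest gap between peaks was 684 bp in the control and 734 bp in the mutant list. The ratio of peaks over 5 kb was 1.23, and 1.22 after both lists were given the same limits on gap and width; the part of depth in it was not tested. The excess of wide peaks was present on every one of the 19 chromosomes, with a ratio of peaks over 5 kb between 1.05 (chromosome 16) and 1.43 (chromosome 1). Chromosome X was outside the comparison, and with it added the ratio was 1.21.

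**Figure D1:**
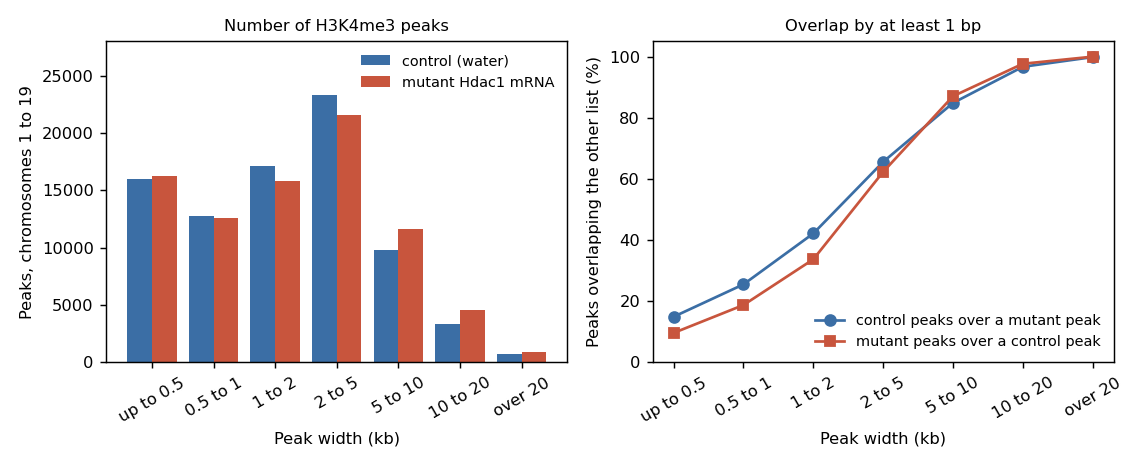
Number of H3K4me3 peaks per width class (left, bars, width in kb) and share of peaks overlapping the other list by at least 1 bp (right, points, percent), for control and mutant embryos on chromosomes 1 to 19. Mutant bars are the lower ones between 1 and 5 kb and the higher ones above 5 kb, and overlap reaches 99.9% of control and 100% of mutant peaks over 20 kb.

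Places marked in both conditions were compared peak by peak. Of the control peaks, 51.3% had no overlapping mutant peak, and of the mutant peaks 54.1% had no overlapping control peak. These peaks of a single list were narrow, with median widths of 896 bp (control) and 876 bp (mutant). Peaks with a partner were wider, at 3148 and 4047 bp. In bases, 145 Mb lay under peaks of both lists, which is 58.6% of the control and 52.99% of the mutant coverage. Division and fusion of peaks were uneven: 5229 control peaks met 2 or more mutant peaks, while 6880 mutant peaks met 2 or more control peaks.

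Among the 22683 pairs in which 1 control and 1 mutant peak overlapped only each other, the mutant peak was the wider one in 61.1%. Control peaks of these pairs had a median of 2757 bp and their mutant partners 3405 bp, with a median log2 ratio of 0.24. A mutant peak at least 2-fold wider was found in 24.3% of pairs and one at least 2-fold narrower in 12.8%. The share of wider mutant peaks and the median log2 ratio were largest at promoters. Promoters were defined as 2 kb on each side of a start site, or of both gene ends where no start site was listed. There the mutant peak was wider in 68.2% of 6063 pairs, with medians of 3345 and 4427 bp. It was wider in 57.3% of 7525 pairs within gene bodies and in 59.6% of 9095 pairs outside genes. The share of mutant peaks at least 2-fold wider had another order, with 20.4% at promoters, 24.6% within gene bodies and 26.7% outside genes. At least 2-fold narrower were 5.16%, 17.2% and 14.3%. When pairs were grouped by the mean of both widths, the share with a wider mutant peak was 50.7% up to 0.5 kb and 64.3% between 5 and 10 kb. It was 56.2% between 10 and 20 kb, where the median log2 ratio was 0.05.

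Around start sites the mutant profile over all genes was lower at the centre and higher on both flanks. The start site itself lay inside a peak in 67.9% of the 16457 genes in control and 64.5% in mutant embryos. From 1 kb outwards the order was the opposite. At 2 kb downstream, 39.8% of genes were covered in control and 49.05% in mutant embryos, and at 3 kb downstream 31.1% and 40.3%. At 3 kb upstream the shares were 32.8% and 38.1%, so the excess was larger on the transcribed side. At 10 kb the lists differed little, with 26.4% and 27.7% upstream and 22.2% and 23.3% downstream. The difference at the start site was -3.35 percentage points as deposited, -3.26 over peaks of at least 0.5 kb and -3.39 under common limits on gap and width. In the wider 50% of each list it was -0.37 points. The difference at 3 kb downstream was 9.26 points as deposited and 9.42 with that cut.

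**Figure D2:**
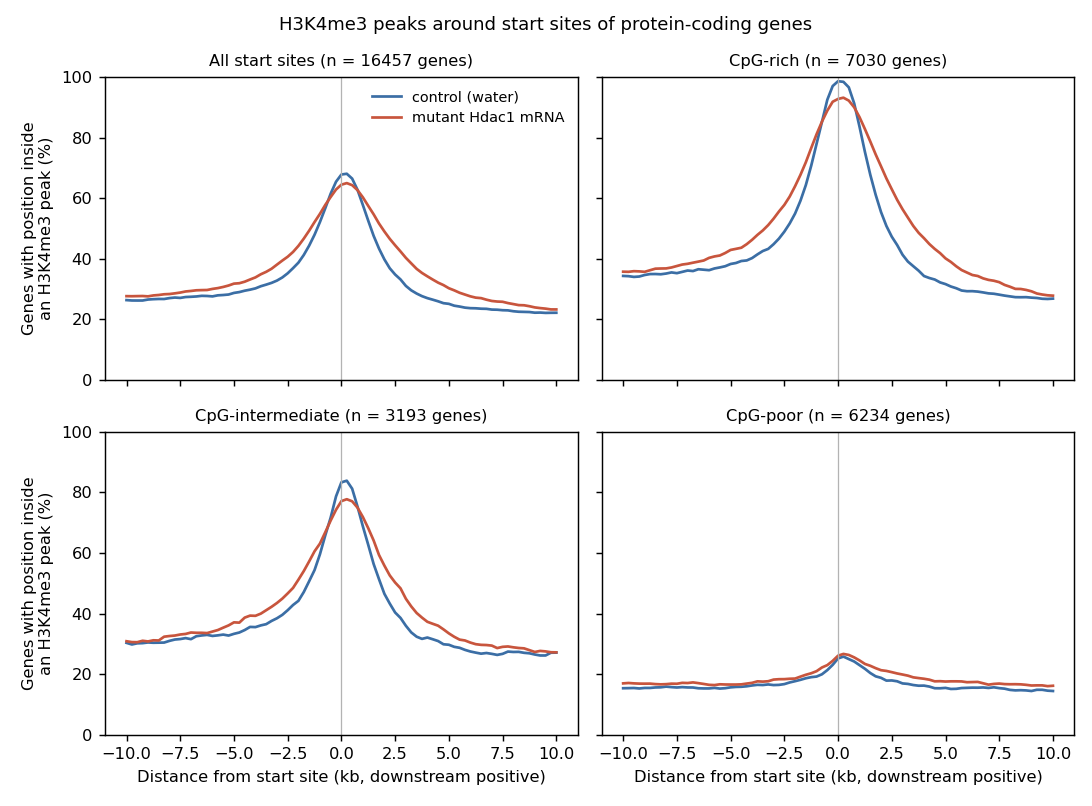
Share of protein-coding genes (percent) whose position at a given distance from the start site (kb, downstream positive) lies inside an H3K4me3 peak, for control and mutant embryos, over all 16457 genes and by CpG class of the promoter. At the centre of CpG-rich promoters the mutant line is at 92.8% and the control line at 98.6%, and on both flanks the mutant line is above the control line. At the centre of CpG-poor promoters the mutant line is the higher one, at 26.1% against 25.2%.

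H3K27ac, an acetylation of histone H3 at active promoters and enhancers, differed in another way at the same start sites. It covered 36.4% of start sites in control and 28.8% in mutant embryos. It was also lower in mutant embryos 3 kb downstream, at 26.04% and 21.9%, and 10 kb downstream, at 24.7% and 20.4%. The median H3K27ac-covered length within 10 kb of a start site was nevertheless higher in mutant embryos, at 1937 bp (control) and 2591 bp (mutant), so these measures of H3K27ac run in different directions.

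The edges of single H3K4me3 peaks showed the same excess on the flanks. In 9951 genes the start site lay inside a peak in both lists, so the lower centre of the mutant profile cannot appear among them. Control peaks reached a median of 2273 bp downstream and mutant peaks 3336 bp, and upstream they reached 2158 and 2862 bp. The downstream edge lay further out in the mutant list in 65.7% of these genes and the upstream edge in 59.5%. Both edges lay further out at 3967 genes and both further in at 1456. The mutant downstream edge lay more than 1 kb further out at 41.8% of the genes and more than 1 kb further in at 17.8%.

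The promoters were divided by the CpG content of the 300 bases around the start site (250 before it and 50 after it). CpG-rich promoters had a ratio of observed to expected CpG of at least 0.6 and a GC content of at least 55%, and CpG-poor promoters a ratio under 0.4. Of 7030 CpG-rich genes, 99.1% had an H3K4me3 peak within 2 kb of the start site in control and 94.4% in mutant embryos. For the 3193 intermediate genes these shares were 87.4% and 81.9%. Of the 6234 CpG-poor genes 36.2% were marked in each list. CpG-rich promoters are typical of housekeeping and developmental genes, and CpG-poor ones of tissue-restricted genes.

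Equal numbers of CpG-poor genes did not mean the same genes. Over all classes 1256 genes (7.63%) were marked in control only and 746 (4.53%) in mutant only. Among CpG-poor genes, 601 were marked in control only and 601 in mutant only, so that 26.6% of the marked genes of each list (95% Wilson interval 24.8 to 28.5, counting error only) had no peak in the other. Among CpG-rich genes the counts were 357 and 25. Intermediate genes fell between, with 298 and 120. Counted over peaks of at least 0.5 kb, the CpG-rich counts were 351 and 26. With a widest peak over 2 kb, 240 of 6261 control-marked CpG-rich genes were marked in control only and 9 of 6353 mutant-marked ones in mutant only. With the wider 50% of each list the counts came close, at 386 and 291 for CpG-rich and 250 and 242 for intermediate genes, whereas those of CpG-poor genes moved apart, at 400 and 481. Of the 291 CpG-rich genes marked in mutant only under that cut, 281 had a narrower control peak in the list as deposited, and of the 386 marked in control only 120 had a narrower mutant peak. For intermediate genes these numbers were 175 of 242 and 68 of 250.

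**Figure D3:**
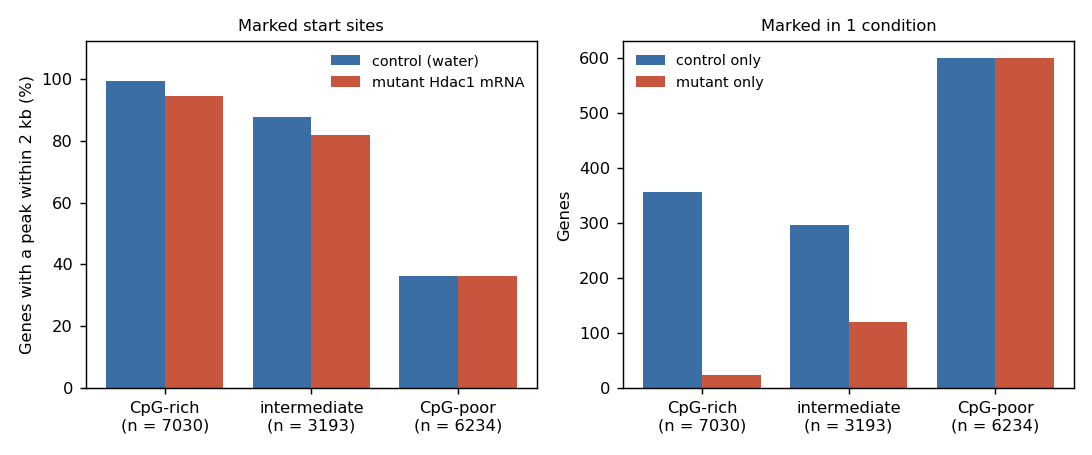
Share of genes with an H3K4me3 peak within 2 kb of the start site (left, percent) and number of genes marked in control only or mutant only (right), by CpG class of the promoter. CpG-rich genes marked in 1 list were mostly control-only (357 against 25), and CpG-poor genes were split 601 to 601.

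The promoters marked in control only had narrow control peaks. At CpG-rich promoters their widest control peak had a median of 2679 bp, against 5152 bp where the mark was present in both lists. The share without a mutant peak was 32.9% for CpG-rich promoters with a control peak of up to 1 kb, 6.07% between 2 and 5 kb, and 1.31% over 10 kb. CpG-poor promoters followed the same order at a higher level, with 62.1%, 24.7% and 9.76%. The nearest mutant peak was a median of 9.20 kb away from the CpG-rich start sites marked in control only, and within 10 kb of 192 of the 357. Wide peaks were also among them, since 71 of the 357 had a control peak over 5 kb.

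Sequence composition differed between the promoter states. The median number of CpG in 300 bases was 21 in promoters marked in both lists, 8 in those marked in control only, 4 in those marked in mutant only and 2 in those marked in neither. The GC box GGGCGG (or CCGCCC on the other strand), a binding motif of Sp1-type factors, was present in 64.1%, 40.0%, 17.02% and 7.07% of these groups and in 47.3% of all 16457 promoters. The motif contains a CpG, so it is not independent of CpG content. The TATA motif TATAAA (or TTTATA) ran the other way, with 7.21%, 13.1%, 20.2% and 30.8%, against 13.5% of all promoters. Within CpG-poor promoters alone, TATAAA was found in 16.5% of those marked in control only and 22.5% of those marked in mutant only, against 13.9% of those marked in both lists, 31.6% of those marked in neither and 24.5% of all CpG-poor promoters. CCAAT (or ATTGG) varied little, between 38.07% and 41.8%. The ETS-type motif CGGAAG (or CTTCCG) and the E-box CACGTG, its own reverse complement, followed CpG content, with 29.7% and 10.02% of promoters marked in both lists and 3.79% and 2.60% of those marked in neither. These are matches of letters in a 300-base window.

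H3K27ac was also set beside these promoter states, within 2 kb of the start site. Promoters marked by H3K4me3 in both lists had an H3K27ac peak in 62.8% of cases in control and 58.8% in mutant embryos. Those with H3K4me3 in control only had one in 36.7% and 37.7%. Those with H3K4me3 in mutant only had one in 19.8% in control and 32.7% in mutant embryos. Those with H3K4me3 in neither list had one in 10.07% and 12.9%. The H3K27ac lists differ in size, with 73320 control and 114737 mutant peaks on chromosomes 1 to 19 that cover 9.83% and 9.64% of the span, which bears on every share of windows or peaks that meet H3K27ac.

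H3K27ac was also counted over all H3K4me3 peaks, most of which lie away from promoters. Mutant-only H3K4me3 peaks overlapped H3K27ac in 14.5% of cases in control and 22.5% in mutant embryos. Control-only peaks did so in 27.2% and 26.5%. Among peaks over 5 kb, 75.9% of the control-only and 37.5% of the mutant-only ones met a control H3K27ac peak, and 69.9% and 59.7% a mutant one. Measured in bases, acetylation of control embryos covered 61.3% of the wide control-only peaks and that of mutant embryos 38.3%. Of the wide mutant-only peaks they covered 13.1% and 25.3%. Of the bases of all control H3K4me3 peaks, H3K27ac covered 53.04% in control and 39.9% in mutant embryos, and of those of all mutant H3K4me3 peaks 40.6% and 36.4%.

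Most H3K4me3 peaks lay outside promoters. Promoter windows made up 3.73% of the span and held 11275 control and 9858 mutant peaks by midpoint, or 13.5% and 11.8% of the lists. Fewer promoter peaks covered more sequence, 49.3 Mb in control against 55.9 Mb in mutant embryos, with median widths of 3331 and 4517 bp. Outside genes there were 39486 control and 40863 mutant peaks, a share 1.61 percentage points higher in mutant embryos. Partners were common at promoters, where 84.4% of control and 88.7% of mutant peaks overlapped the other list, and less so outside genes, at 42.7% and 38.9%.

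For single genes, the covered length within 10 kb on each side of the start site, a window of 20001 bp, was compared. The median gene had 5.26 kb in control and 6.55 kb in mutant embryos. Coverage was larger in mutant at 8447 genes, smaller at 5729 and equal at 2281, of which 2237 were at 0 in both. With 1000 bp added to each value, 1786 genes (10.9%) were at least 2-fold higher and 1171 (7.12%) at least 2-fold lower in mutant embryos. More than 10 kb of the window was covered at 28.7% of genes in control and at 34.4% in mutant embryos.

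The 8 genes with the largest deficit in mutant embryos, taking 1 gene per locus, are given first. Pmf1, a kinetochore gene (chromosome 3, start site 88410397), had 18677 bp covered in control and 0 in mutant embryos. Pfdn6, a subunit of the prefoldin chaperone (chromosome 17, start site 33940343), had 19277 and 671 bp. Mrps18b, a protein of the mitochondrial ribosome (chromosome 17, start site 35916440), had 17777 and 272 bp. All 3 lay under control peaks of over 14 kb with no mutant peak within 2 kb, unlike the narrow control peaks that made up most of this group. Gas2l3, a cytoskeletal linker (chromosome 10, start site 89443967), had 16846 and 0 bp. Nptn, encoding neuroplastin (chromosome 9, start site 58582240), had 19294 and 2478 bp. Srp72, a subunit of the signal recognition particle (chromosome 5, start site 76974701), had 17634 and 1844 bp. Haspin, a histone H3 kinase of mitosis (chromosome 11, start site 73138294), was fully covered in control at 20001 bp and had 4094 bp in mutant embryos, the only one of the 8 with a peak at the start site in both lists. Trim43a (chromosome 9, start site 88580891) had 16122 and 0 bp, but it belongs to a family of similar copies, so its reads may be placed at other copies. H3K27ac within the same windows was lower in mutant embryos at 7 of these 8 genes, Nptn being the exception with 12702 and 13587 bp. Over all 16457 genes it was lower at 44.7% and higher at 39.3%, and over the 1171 genes with at least 2-fold lower H3K4me3 coverage it was lower at 48.7% and higher at 38.9%.

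Among the 8 genes with the largest excess in mutant embryos, 6 had a short control peak at the start site and a long mutant peak there. Ip6k2, an inositol hexakisphosphate kinase (chromosome 9, start site 108783812), had 3445 bp covered in control and the whole window of 20001 bp in mutant embryos. Map1a, a microtubule-associated protein (chromosome 2, start site 121289602), had a peak of 2478 bp in control and of 18044 bp in mutant embryos. The integrin gene Itga3 (chromosome 11, start site 95076714) had 2815 and 18412 bp covered. The adaptor gene Appl2 (chromosome 10, start site 83648664) had 3457 and 18304 bp and Samd8 (chromosome 14, start site 21750531) 5189 and 20001 bp. Cfap45, a gene of cilia and flagella (chromosome 1, start site 172521130), had 1722 and 17086 bp. Of these 6 genes, all but Samd8 (intermediate) had CpG-rich promoters. Calhm1, an ion channel gene (chromosome 19, start site 47144174), and Gm10264 (chromosome 12, start site 88323832) had CpG-poor promoters with no control peak within 2 kb, and had 2559 and 18721 bp and 213 and 16658 bp covered. H3K27ac within 10 kb was higher in mutant embryos at 7 of these 8 genes, the exception being Samd8 with 5915 and 2589 bp. Over the 1786 genes with at least 2-fold higher H3K4me3 coverage it was higher at 59.97% and lower at 27.8%. Over all 16457 genes it was higher at 39.3% and lower at 44.7%. The 8 genes were picked for an extreme difference, so their count is a description only.

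**Figure D4:**
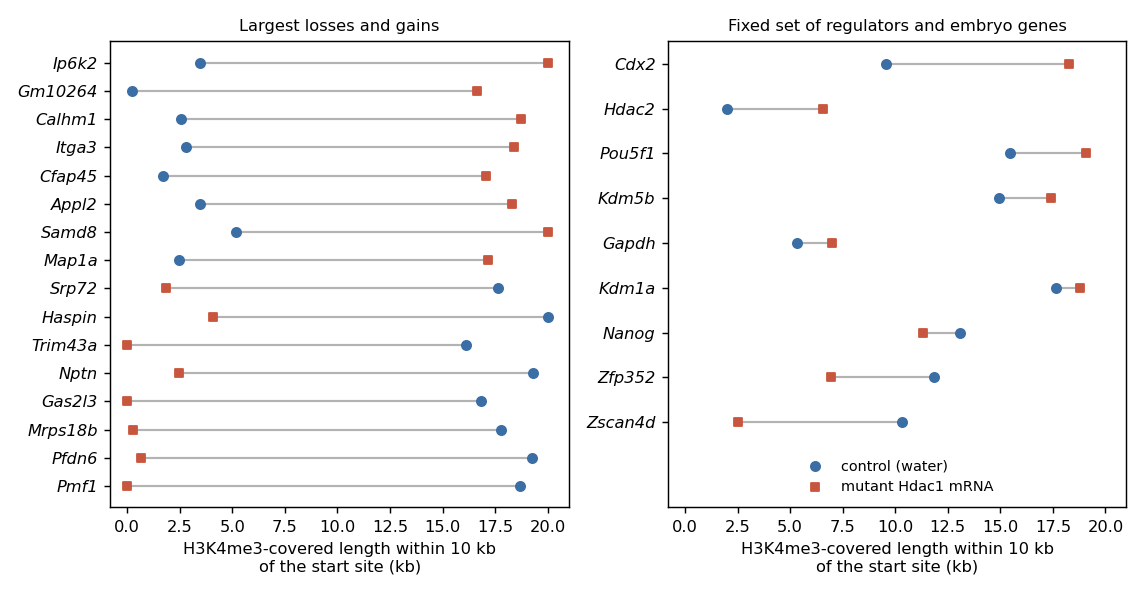
H3K4me3-covered length within 10 kb of the start site (kb) in control and mutant embryos, for the genes with the largest deficit or excess in mutant embryos (left) and for a fixed set of regulators and embryo genes with a listed start site (right). In the right panel Cdx2 has the longest rightward line, from 9565 to 18245 bp, and Zscan4d the longest leftward line, from 10298 to 2521 bp.

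Among the widest peaks of a single list that reached a start site, the control examples were longer than the mutant ones. After those at Pmf1 (22119 bp) and Prpsap2 (18855 bp), the control-only peaks were 16846 bp at Gas2l3 (chromosome 10, 89436531 to 89453376), 15002 bp at the lamin gene Lmna (chromosome 3, 88496719 to 88511720) and 13659 bp at Rfpl4 and Rasl2-9 (chromosome 7, 5112417 to 5126075). Mutant-only peaks measured 12617 bp at Prr29 (chromosome 11, 106373592 to 106386208), 12183 bp at Jakmip1 (chromosome 5, 37039413 to 37051595) and 11756 bp at Il1f9 (chromosome 2, 24176247 to 24188002). They were followed by 10570 bp at LOC102635990 (chromosome 10) and 10161 bp at Crocc2 (chromosome 1). The promoters at these 5 mutant-only peaks were all CpG-poor, whereas those at the 5 control-only peaks were of every class. Of all genes marked in mutant only 80.6% had CpG-poor promoters, and of those marked in control only 47.9%. Of peaks of at least 5 kb within reach of a start site, 130 of 4649 control peaks (2.80%) and 80 of 6120 mutant peaks (1.31%) had no partner. Over all places 1597 control and 1609 mutant peaks over 5 kb had none.

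Gene lists were then read against all 20665 protein-coding genes, of which 7.37% were marked in control only and 4.64% in mutant only. Start sites were used where listed, and both gene ends for the other 4208 genes, of which 6.37% were marked in control only and 5.06% in mutant only. No list can be set apart from these shares by a test, since each condition has 1 list.

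The writers and erasers of H3K4 methylation were mostly marked in both conditions. Of 16 genes of the methyltransferase complexes, 15 were marked in control and 14 in mutant embryos, the difference being Paxip1, named here because it was the only change of state. Kmt2a, which encodes the MLL1 methyltransferase, had 3.36 kb covered within 10 kb of its start site in control and 14.7 kb in mutant embryos. Wdr82, a subunit of the SET1 complexes, had 4003 and 9160 bp. Lower values in mutant embryos were found at Men1, encoding menin, with 10.3 and 7.15 kb, and at Ncoa6, with 4976 and 522 bp and no peak within 2 kb of the start site in either list. Of the 11 genes with a start site, 7 had more coverage in mutant embryos and 4 less. At Kmt2b, the MLL2 gene, the widest peak at a gene end measured 4563 bp (control) against 18414 bp (mutant), and the coverage of the gene with 10 kb on each side was 11284 and 18678 bp.

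All 6 H3K4 demethylase genes were marked in both lists. The 4 with a start site all had more coverage in mutant embryos, with 3.42 and 7.30 kb at Kdm1b, 10.4 and 13.6 kb at Kdm2b, 14.9 and 17.4 kb at Kdm5b and 17.7 and 18.8 kb at Kdm1a. At Kdm5a, encoding a demethylase of H3K4me3, the gene with 10 kb on each side had 46185 bp covered in control and 30638 bp in mutant embryos, although the widest peak at its ends was the mutant one. Kdm2a, the other gene of this list without a listed start site, had 56516 and 24436 bp covered in the same way, so both genes measured over the gene had less coverage in mutant embryos. Of all genes with a start site, 8447 of 16457 had more coverage in mutant embryos.

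The 22 genes of class I deacetylases and corepressors were marked in both lists without exception. Hdac2 had 1973 bp covered within 10 kb in control and 6542 bp in mutant embryos. Ncor1, encoding a nuclear receptor corepressor, had 14329 and 8798 bp, and Chd4, the NuRD remodeller, 13.0 and 11.1 kb. Hdac1 itself, with 10 kb on each side, had 38457 and 30977 bp covered, whereas the widest peak at its ends measured 32422 and 42350 bp. Of the 17 with a start site, 10 had more coverage in mutant embryos and 7 less.

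Genes of the 2-cell burst differed in both directions. Of 35 such genes, 28 were marked in each list, 3 in control only and 3 in mutant only. Their median coverage within 10 kb was 7.05 kb in control and 3.40 kb in mutant embryos (24 genes with a start site), while over all genes it was 5.26 and 6.55 kb. More coverage in mutant embryos was found at 11 and less at 11, and the median log2 ratio per gene was 0, so the medians of the groups do not describe the typical gene. At least 2-fold lower coverage was found at 7 of the 24 and at least 2-fold higher at 3, against 7.12% and 10.9% of all genes. Zscan4d, a marker of the 2-cell state, had 10.3 and 2.52 kb, Zfp352, a zinc finger gene of the same stage, 11864 and 6932 bp, and Sfmbt2 7.89 and 0.719 kb. Usp17ld had 0 and 8.39 kb and Btg2 2.99 and 10.4 kb. Within the Zscan4 family the direction was mixed, since Zscan4c and Zscan4f were marked in mutant only. Many of these genes belong to families of near-identical copies (Zscan4, Tdpoz, Usp17l, Obox), where reads can be shared between copies, so their single values are uncertain. Dppa4, an activator of the 2-cell programme, had 24011 and 17217 bp covered over the gene with 10 kb on each side, and its neighbour Dppa2, whose window overlaps that of Dppa4, 26609 and 16418 bp.

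Oocyte and maternal-effect genes were marked more often in mutant embryos. Of 29 genes, 18 had a control peak and 24 a mutant peak, with 7 in mutant only and 1 in control only. Over all 20665 genes 4.64% were marked in mutant only and 7.37% in control only, and over CpG-poor genes 9.64% in each. One of the 7, Oosp1, rested on a mutant peak of 337 bp, and its coverage within 10 kb was lower in mutant embryos, at 2585 and 337 bp. The control-only gene, Oosp3, is its neighbour on chromosome 19 with an overlapping window and the same 2585 and 337 bp, so this locus enters both counts. Nlrp5, encoding a protein of the subcortical maternal complex, had 0 kb covered within 10 kb in control and 8.20 kb in mutant embryos. Nlrp2 had 0.283 and 5.79 kb, and the oocyte transcription factor gene Nobox 5.10 and 12.4 kb. The zona pellucida gene Zp3 had 16.1 and 12.2 kb. Of the 21 genes with a start site, 12 had CpG-poor promoters. More coverage in mutant embryos was found at 12 of the 21 and less at 6, against 8447 and 5729 of all 16457 genes.

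Genes of growth and housekeeping functions were marked in nearly all cases. All 50 genes of cytosolic ribosomal proteins were marked in both lists, and 44 of 44 ribosome biogenesis genes in control and 43 in mutant embryos. Polr1a, the largest subunit of RNA polymerase I, was the one marked in control only and is named for that reason. Coverage still differed at single genes: Rps23 had 9.93 and 18.9 kb, Rpl37 19.2 and 10.8 kb, Nop10 18.8 and 9.06 kb and Gnl3, encoding nucleostemin, 13.6 and 4.54 kb. Of the 38 ribosome biogenesis genes with a start site, 16 had more coverage in mutant embryos and 22 less, an order opposite to that of all genes. Of the 39 cytosolic ribosomal protein genes with a start site, 22 had more and 17 less. Of 28 housekeeping genes 27 were marked in control and 28 in mutant embryos, and 14 of 21 had more coverage in mutant embryos, among them Atp5b with 8.67 and 18.0 kb.

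Among pluripotency and first-lineage factors, 28 of 30 were marked in each list, with no gene marked in a single one. The trophectoderm factor gene Cdx2 (chromosome 5, start site 147307249) had 9565 bp covered in control against 18245 bp in mutant embryos, and Sox2 10.3 and 18.1 kb. Pou5f1 had 15451 and 19092 bp and Nanog 13089 and 11310 bp. Coverage was lower in mutant embryos at Nr5a2, a nuclear receptor gene active in cleavage embryos, with 18.0 and 8.23 kb, at Klf17 with 15.1 and 8.57 kb and at Klf2 with 17106 and 11027 bp. Of these genes Cdx2, Sox2 and Klf2 have CpG-rich promoters and Pou5f1, Nanog, Nr5a2 and Klf17 CpG-poor ones. Of the 19 genes with a start site, 12 had more coverage in mutant embryos and 6 less.

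Developmental transcription factor genes, most of which act later in development, were marked in nearly all cases. Of 56 genes, 54 were marked in control against 53 in mutant embryos. Of the 40 with a start site, 30 had more coverage in mutant embryos and 10 less, and their median was 8.33 and 11.8 kb. Over all 16457 genes these numbers were 8447 and 5729, with medians of 5.26 and 6.55 kb. Of the 40 genes 25 had CpG-rich promoters. The median log2 ratio was 0.26 over the 40 genes, 0.14 over all CpG-rich genes and 0.02 over all genes. The mesoderm factor gene T had 3911 and 15312 bp, Sox1 13.0 and 19.1 kb and Six2 8.03 and 14.2 kb, whereas Hoxb1 had 18.8 and 12.2 kb. Genes of differentiated tissues were less often marked, 15 of 34 in control against 19 in mutant embryos, and 7 were marked in mutant only and 3 in control only. Over all 20665 genes these shares were 4.64% and 7.37%. Of the 24 genes with a start site 18 had CpG-poor promoters, a class with 9.64% marked in mutant only and 9.64% in control only. The lysozyme gene Lyz2 had 3.44 and 10.1 kb, the uromodulin gene Umod 0 and 6.45 kb, and the kidney transporter gene Slc12a1 5.55 and 0 kb.

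**Figure D5:**
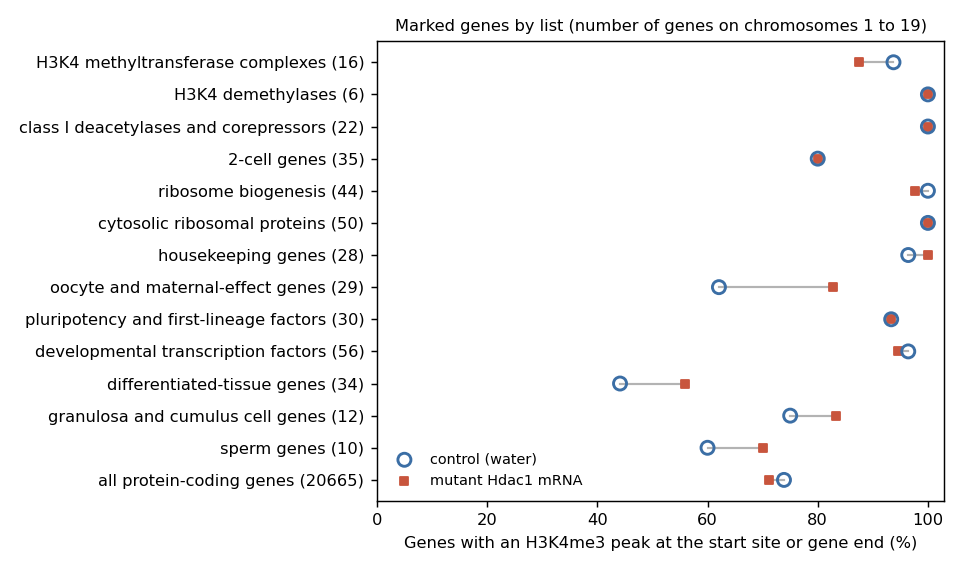
Share of genes of each list with an H3K4me3 peak at the start site or gene end (percent), with control as open circles and mutant as squares, and the number of genes in parentheses. The largest distance is that of oocyte and maternal-effect genes, with 18 of 29 genes in control and 24 in mutant embryos. Over all 20665 genes the shares were 73.9% and 71.1%.

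Marks of other cells that an embryo sample could hold were also counted. Genes of granulosa and cumulus cells were marked at 9 of 12 in control and 10 in mutant embryos, and sperm genes at 6 of 10 and 7 of 10. Over the granulosa genes with a start site the covered length ran from 0 kb at Lhcgr in both lists to the full 20001 bp at Amhr2 in both. Of these 10 genes, 7 had more coverage in mutant embryos and 1 less, with medians of 3.49 and 4.78 kb, and Tnfaip6, a gene of the expanding cumulus, had 3432 and 12470 bp. Of the 8 sperm genes with a start site, 3 had more coverage in mutant embryos and 5 less. Since H3K4me3 can also mark genes that are not transcribed, these counts do not give the share of other cells, and their part in the results was not tested. Of the 35 genes of the 2-cell stage, 4 had no peak in either list.

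On the scale of megabases the mutant excess was widespread. Of 2410 bins of 1 Mb that held a peak, 1626 had more covered sequence in mutant embryos and 784 less, and the differences between the 5th and the 95th percentile of all bins ran from -23.5 to 57.0 kb. With the bins ordered by their number of genes, the mean covered length had a mutant-to-control ratio of 1.14 in bins of 0 to 2 genes, 1.23 in bins of 2 to 6, 1.14 in bins of 6 to 12 and 1.06 in bins of 12 to 67, with 617 or 618 bins in each set. The ratio thus showed no steady order with gene number. The largest deficit was in the bin of chromosome 12 from 3000001 to 4000000, which holds the DNA methyltransferase gene Dnmt3a and 6 other coding genes, with 366 kb covered in control and 250 kb in mutant embryos. The next were chromosome 16 from 20000001 to 21000000 (389 and 295 kb), chromosome 2 from 91000001 to 92000000 (445 and 353 kb) and chromosome 10 from 128000001 to 129000000 (588 and 497 kb). The largest excess was on chromosome 11 from 94000001 to 95000000, which holds Col1a1, with 335 and 451 kb. It was followed by chromosome 14 from 76000001 to 77000000 (182 and 294 kb), chromosome 9 from 43000001 to 44000000 (164 and 274 kb) and chromosome 11 from 59000001 to 60000000 (280 and 389 kb).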

How the data were processed

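ULI-NChIP-seq is native chromatin immunoprecipitation from few cells, in which unfixed chromatin is cut with micrococcal nuclease. The files used are peak lists deposited by the authors, with chromosome, start and end of each peak and no score. Per the submitters' processing notes, the tools were CASAVA, Trimmomatic, Bowtie2, SAMtools, Picard, MACS2 and deepTools and the builds mm10 and GRCm38. Versions, thresholds and the way the 2 libraries of a group were joined are not given in the sources used here. The depth is unknown, since no read counts were used. The smallest peak was 169 bp in the control and 182 bp in the mutant list and the smallest gap 684 and 734 bp. Whether both lists were called with the same limits is unknown.

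Peaks on chromosomes 1 to 19 were compared by overlap of at least 1 bp. Positions are printed 1-based. The outermost start site listed by RefSeq (GRCm38.p6) was used for 16457 of 20665 protein-coding genes, and both gene ends for the other 4208. Of 387 listed gene names 5 were not matched (Zscan4a, Zscan4e, Eif1ad8, Zfp280a and Ela1). Computation used python 3.11.15, numpy 2.4.6, pandas 2.3.3 and scipy 1.17.1, and the interval functions were tested on simulated data. Shares carry 95% Wilson intervals where printed. The members and gene lists were chosen with earlier results of these data known. Named genes are those of the largest gain and loss of covered length, overall and in each list (from the list members with a start site), and a fixed set. Alternatives covered overlap, joining, width, window, fold, pseudocount, chromosome X and start site.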

Additional observations from a re-analysis of the deposited data

How the results depend on the processing

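No paired analysis was possible because 1 list describes both libraries of a condition, and for the same reason leaving out a replicate was not possible. The lists hold no score, so a stricter threshold was replaced by the wider 50% of each list. The start-site profile differences and the innermost start site were added after the lists had been seen. Of 85 recomputed values, 56 stayed within the counting interval of the value as deposited and 29 did not. For counts of genes the limit was 1.5 times that value. A direction exists only for the ratios, the differences between the lists and the share of pairs with a wider mutant peak. Among these, only the ratio of peak numbers changed direction. The difference at the start site shrank from -3.35 points as deposited to -0.37 in the wider 50%. The overlap shares and the counts of genes have no direction that a setting can reverse. Why the 29 values moved was not tested.

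The ratio of peak numbers, 1.001 as deposited, gives no direction. It was 1.04 under common limits on gap and width (peaks less than 750 bp apart merged, peaks under 200 bp dropped) and 0.988 with chromosome X. The ratio of covered length, 1.11, was 1.12 in the wider 50% and 1.09 with chromosome X. The ratio of broad peaks, 1.23 above 5 kb, was 1.10 above 3 kb, 1.35 above 10 kb and 1.19 with peaks less than 1 kb apart merged.

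The share of control peaks with a mutant partner, 48.7%, was 40.9% with at least 50% of the peak covered, 19.8% with a reciprocal overlap of 50% and 53.4% within 1 kb. It was 47.2% after merging at 1 kb, 49.4% under common limits, 55.5% for peaks of at least 0.5 kb, 65.3% in the wider 50% and 47.8% with chromosome X. For mutant peaks, 45.9% as deposited, the values were 33.9%, 19.8% and 50.3% under those overlap criteria. They were 44.4%, 46.3%, 52.9% and 62.7% for merging, common limits, the width limit and the wider 50%.

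The mutant peak was wider in 62.7% of pairs in the wider 50% and in 63.6% of pairs differing by more than 0.5 kb. Genes at least 1.5-fold lower numbered 2063 and at least 1.5-fold higher 3570. With chromosome X added, 1407 genes were marked in control only and 784 in mutant only, against 1256 and 746 without it. Genes at least 2-fold lower in mutant embryos then numbered 1346 and at least 2-fold higher 1836, against 1171 and 1786. The share of peaks outside genes differed by 2.17 points for peaks of at least 0.5 kb and 2.94 points in the wider 50%. The difference at the start site was -0.37 points in the wider 50%.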
